A study of Rattus norvegicus with 9 samples.

Results

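The excitatory neurons of the cerebral cortex lie in layers that are born in sequence and send their axons to different targets, and 9 transcription regulators and markers of those layers are described here in the neonatal rat. Members were chosen by gene symbol: all probe sets whose platform annotation gives exactly 1 symbol, that of Rorb, Cux1 or Cux2 (upper layers) or of Fezf2, Bcl11b, Crym, Tle4, Foxp2 or Tbr1 (deep layers). This gave 15 probe sets, 6 for the 3 upper-layer genes and 9 for the 6 deep-layer genes, of 31099 on the array, and 9 of the 14217 genes that a probe set with 1 symbol measures. The series concerns 4-methylimidazole (4-MeI), a small heterocycle that forms when food browns and that occurs in some caramel colours. Hsd:Sprague Dawley SD rats ate diets with 0 ppm (Control), 750 ppm or 2500 ppm of 4-MeI through successive generations of continuous breeding. Dissected cortex of pups from F2b litters was profiled on postnatal day 4, with 1 pup taken from each litter and 3 Affymetrix rat genome arrays per diet. The labels name no mutation and no second agent, and all groups share strain, age and tissue. They do not give the sex of the pups or which dams had the seizures that the study's title names.

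In the developing cortex of rodents, cross-repressing transcription factors fix the layer and the projection of a neuron. Fezf2 and its target Bcl11b direct layer 5 neurons towards the brainstem and spinal cord, Tbr1 holds layer 6 neurons to thalamic targets, and the cut homeodomain proteins Cux1 and Cux2 mark layers 2 to 4, whose neurons connect cortical areas. Bcl11b and Foxp2 are also strongly expressed by projection neurons of the striatum, which lies directly beneath the cortex.

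None of the 14 probe sets above the intensity filter passed the test in any comparison (limma, Benjamini-Hochberg adjusted p under 0.05 over 21729 probe sets). The lowest adjusted p among them was 0.133 for 2500 ppm against Control, 0.256 for 750 ppm against Control and 0.251 for 2500 ppm against 750 ppm. At the unadjusted level of 0.05, 10 of the 14 differed between 2500 ppm and Control, beside 16% of all probe sets tested. Of these 10, 7 were deep-layer probe sets, all below Control, and 3 were upper-layer probe sets, with both of Cux2 above and 1 of Rorb below. In all, 8 were lower (9.12% of all probe sets) and 2 higher (6.89%). The count of 10 fell when single arrays were left out, given here with the share of all probe sets in the same fit. It was 3 without 2500 ppm replicate 3 (11.9% of all). It was 5 without Control replicate 1 (15.2%), Control replicate 2 (14.7%) or 2500 ppm replicate 2 (14.1%), and 6 without Control replicate 3 (14.3%). Without each other array it was 7 to 9 (12.1% to 18.6%). Values are log2 intensities from the robust multi-array average (RMA), so that a difference of 1 is a doubling, and levels of different probe sets are not compared with each other.

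The arrays had median log2 values between 7.67 and 7.71. Control replicate 3 had the lowest score on the first principal component (-25.2, against -8.64 and -9.47 in the other Control arrays), and 750 ppm replicate 3 lay at 14.98, within the 10.3 to 18.8 of the 2500 ppm arrays and away from -5.97 and -11.3 in its own group. The cortical label was met by the general excitatory markers: Slc17a7, Neurod2, Neurod6, Emx1 and Bhlhe22 were all above the filter. Markers of bordering tissue were above the filter too, with 16 of 17 striatal genes, 12 of 13 meningeal genes and 6 of 8 choroid plexus genes on the array. The filter takes the mean over all 9 arrays. The choroid plexus genes Folr1 and Sostdc1 had Control means of 6.17 and 6.07, under the filter value of 6.352. The mean of the 17 striatal genes, centred over the 9 arrays, was 0.62, 0.23 and 0.36 in Control replicates 1, 2 and 3. At 750 ppm it was 0.58, 0.48 and -0.82, and at 2500 ppm -0.87, -0.069 and -0.52.

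Bcl11b, a zinc-finger factor of layer 5 corticospinal neurons and of striatal projection neurons, had the largest difference of the 14 probe sets tested, on 1 of its 3 probe sets at 2500 ppm. The gene (Entrez 314423) lies on chromosome 6 of the GRCr8 assembly from 132598968 to 132692123 and has 3 probe sets. Its brightest, 1384944_at, read 13.05, 12.84 and 13.08 in Control cortex, 12.97, 13.03 and 12.29 at 750 ppm, and 12.19, 12.62 and 12.35 at 2500 ppm. The second, 1391948_at, read 12.36, 12.04 and 12.36 in Control cortex, 12.19, 12.49 and 11.47 at 750 ppm, and 11.22, 11.73 and 11.29 at 2500 ppm. The third, 1378520_at, read 9.85, 9.42 and 9.65 in Control cortex, 9.43, 9.96 and 8.74 at 750 ppm, and 8.41, 8.98 and 8.53 at 2500 ppm. On all 3, every 2500 ppm array lay below every Control array, and the single low 750 ppm array was replicate 3. The differences between 2500 ppm and Control were -0.60 (SE 0.19), -0.84 (SE 0.24) and -0.998 (SE 0.28), n = 3 against 3, with limma adjusted p of 0.170, 0.139 and 0.133. The 3 probe sets followed each other closely over the 9 arrays, with Pearson r from 0.965 to 0.991.

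Foxp2, a forkhead factor of layer 6 corticothalamic neurons and of striatal projection neurons, showed the same arrangement of arrays. On its probe set 1380387_at (Entrez 500037, chromosome 4 from 44099848 to 44677700), it read 11.63, 11.37 and 11.33 in Control cortex, 11.73, 11.66 and 10.35 at 750 ppm, and 10.28, 11.04 and 10.51 at 2500 ppm. The 2500 ppm arrays again all lay below the Control arrays, and 750 ppm replicate 3 lay within the 2500 ppm range. The difference between 2500 ppm and Control was -0.84 (SE 0.34, limma adjusted p = 0.270), with a 95% interval from -1.60 to -0.072. Between 750 ppm and Control it was -0.19 (SE 0.34, adjusted p = 0.860), and 0.25 (adjusted p = 0.634) without 750 ppm replicate 3.

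The levels of both genes ran with the means of the striatal and of the interneuron markers over the arrays. Pearson r between the striatal list mean and the probe set was 0.991 for Foxp2 and 0.979, 0.946 and 0.929 for the 3 of Bcl11b, over 9 arrays that share their group structure. For the other member probe sets above the filter it lay between -0.73 (Fezf2) and 0.50 (Cux1 1371024_at). With the striatal list mean as a covariate in the model, the Foxp2 difference between 2500 ppm and Control was 0.027 (SE 0.088, adjusted p = 0.952). The 3 Bcl11b differences were then -0.14, -0.28 and -0.37 (adjusted p between 0.506 and 0.636). The striatal list mean was itself lower in every 2500 ppm array than in every Control array, so this fit cannot tell diet from tissue. With the mean of the 7 interneuron genes measured, r was 0.944 for Foxp2 and 0.947, 0.916 and 0.878 for Bcl11b. That mean was 0.20, 0.11 and 0.37 in Control arrays, 0.47, 0.41 and -0.60 at 750 ppm and -0.43, -0.20 and -0.30 at 2500 ppm. The 7 genes are Gad1, Gad2, Slc32a1, Dlx1, Dlx5, Sst and Npy. Whether their mean reports interneurons apart from striatal neurons was not tested. They were not uniform for 2500 ppm against Control, with Gad2 at -1.09 (limma adjusted p = 0.137) and Sst at -0.40 (adjusted p = 0.333). Npy, which encodes neuropeptide Y, was at 0.30 (adjusted p = 0.461). Fewer cells of a type and less RNA per cell cannot be told apart in these bulk samples.

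**Figure D1:**
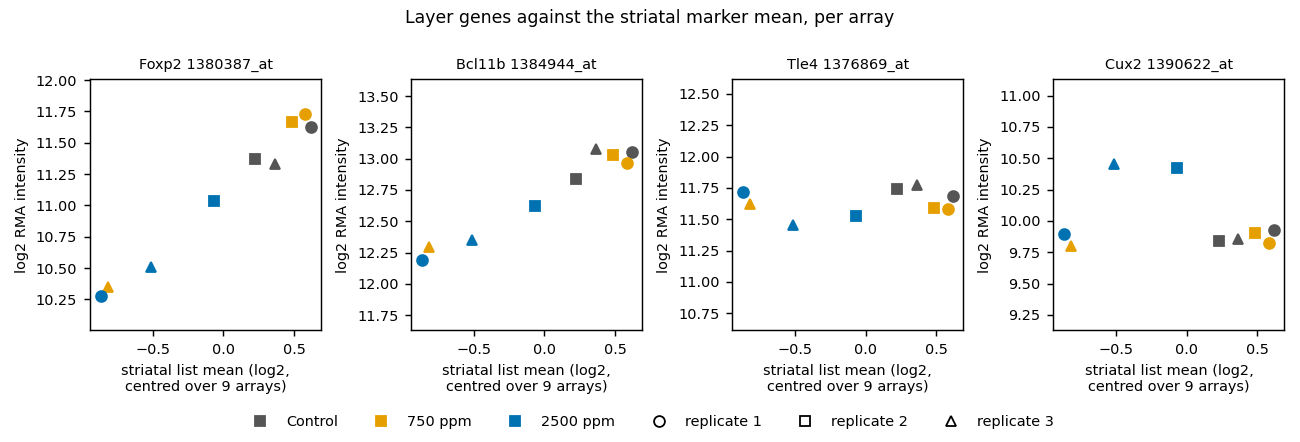
Log2 RMA intensity of 1 probe set each of Foxp2, Bcl11b, Tle4 and Cux2 (y axes, all of equal span) against the mean of 17 striatal genes (x axis, log2, centred over the 9 arrays). Each point is 1 array, coloured by diet with a symbol for its replicate number. Foxp2 and Bcl11b climb with the striatal mean, and 750 ppm replicate 3 sits with the 2500 ppm arrays, while Tle4 and Cux2 show no such line.

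The genes whose pattern over the 9 arrays was most like that of Foxp2 were Synpr (r = 0.995, rho = 0.967), Pdyn (r = 0.991, rho = 0.983) and Adora2a (r = 0.989, rho = 0.967). Those most like Bcl11b 1384944_at were Stk32c (r = 0.982), Tgfa (r = 0.981) and Drd1 (r = 0.976). Pdyn, Adora2a and Drd1 are members of the striatal list. Drd1, the D1 dopamine receptor gene, read 10.19, 9.75 and 10.04 in Control cortex, 10.08, 9.86 and 8.11 at 750 ppm, and 8.23, 9.03 and 8.75 at 2500 ppm. For the brightest probe sets of the other members the closest genes were Psmd11 for Rorb (r = 0.972), C5h8orf34 for Cux1 (r = 0.969), Tpst2 for Cux2 (r = 0.959), Ptpa for Fezf2 (r = 0.977), Rcn1 for Crym (r = 0.945) and Pik3ca for Tle4 (r = 0.908), none of them a striatal list gene.

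Tle4, a Groucho-family corepressor of layer 6 corticothalamic neurons, differed by less, with a smaller spread. Tle4 (Entrez 25565) lies on chromosome 1 from 221086250 to 221222826. Probe set 1387495_at read 8.71, 8.85 and 8.88 in Control cortex, 8.82, 8.65 and 8.98 at 750 ppm, and 8.64, 8.57 and 8.60 at 2500 ppm. All 2500 ppm arrays lay below all Control and all 750 ppm arrays, but barely so for 750 ppm, where the nearest pair was 8.644 and 8.649. The difference was -0.21 against Control (SE 0.086, limma adjusted p = 0.285) and -0.21 against 750 ppm (SE 0.086, adjusted p = 0.369). The other probe set, 1376869_at, read 11.68, 11.74 and 11.78 in Control cortex, 11.58, 11.59 and 11.62 at 750 ppm, and 11.71, 11.53 and 11.45 at 2500 ppm. Here the 750 ppm arrays all lay below Control (-0.14, adjusted p = 0.547), while 2500 ppm replicate 1 overlapped with Control (-0.17, SE 0.073, adjusted p = 0.297). With the striatal covariate the Tle4 differences at 2500 ppm against Control were no smaller (-0.35 and -0.23, adjusted p = 0.190 and 0.389).

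Crym encodes mu-crystallin, a cytosolic protein that binds thyroid hormone and marks layer 5 neurons in the neonatal mouse. Its probe set 1368059_at (Entrez 117024, chromosome 1 from 183991752 to 184006923) read 12.23, 12.29 and 11.76 in Control cortex, 12.03, 11.91 and 12.14 at 750 ppm, and 11.91, 11.68 and 11.73 at 2500 ppm. The low Control value is that of replicate 3, which lay inside the 2500 ppm range. The 2500 ppm and 750 ppm arrays did not overlap, but barely so, the nearest pair being 11.906 and 11.914. The difference between 2500 ppm and Control was -0.32 (SE 0.14, limma adjusted p = 0.290). It was -0.49 (adjusted p = 0.0419) without both Control replicate 3 and 750 ppm replicate 3. That fit drops the lowest Control array, and 1.15% of all probe sets passed in it. With the striatal covariate the Crym difference was -0.45 (adjusted p = 0.375).

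Fezf2, the zinc-finger factor that specifies subcerebral projection neurons of layer 5, did not run with its target Bcl11b. Fezf2 (Entrez 305719) lies on chromosome 15 from 15199045 to 15207982. Its probe set 1385130_at read 10.50, 10.68 and 10.12 in Control cortex, 9.75, 10.10 and 10.87 at 750 ppm, and 10.77, 10.65 and 10.53 at 2500 ppm. The 2500 ppm arrays lay close together, from 10.53 to 10.77, overlapping with Control, and the 750 ppm arrays spread over the widest range, with replicate 3 the highest of all 9. The difference was 0.21 for 2500 ppm against Control (SE 0.25, adjusted p = 0.710), with a 95% interval from -0.35 to 0.78, and 0.41 for 2500 ppm against 750 ppm (SE 0.25, adjusted p = 0.543). Without Control replicate 3 and 750 ppm replicate 3, the difference between 2500 ppm and 750 ppm was 0.72 (SE 0.12, adjusted p = 0.0187). That fit drops the highest 750 ppm array, and 5.23% of all probe sets passed in it. With the striatal covariate the difference from Control was -0.29 (SE 0.22, adjusted p = 0.711).

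Tbr1, a T-box factor of layer 6 and the subplate, was the member that lay below the intensity filter. Its only probe set, 1375539_at (Entrez 680427, chromosome 3 from 66758805 to 66769626), had a mean of 5.96 over the 9 arrays, under the filter value of 6.352, and was not tested. It read 5.999, 5.94 and 6.10 in Control cortex, 5.89, 5.74 and 6.18 at 750 ppm, and 5.97, 5.88 and 5.95 at 2500 ppm. The 3 groups overlapped, and differences of this probe set are compressed near background, so that a change in Tbr1 was not detectable here.

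**Figure D2:**
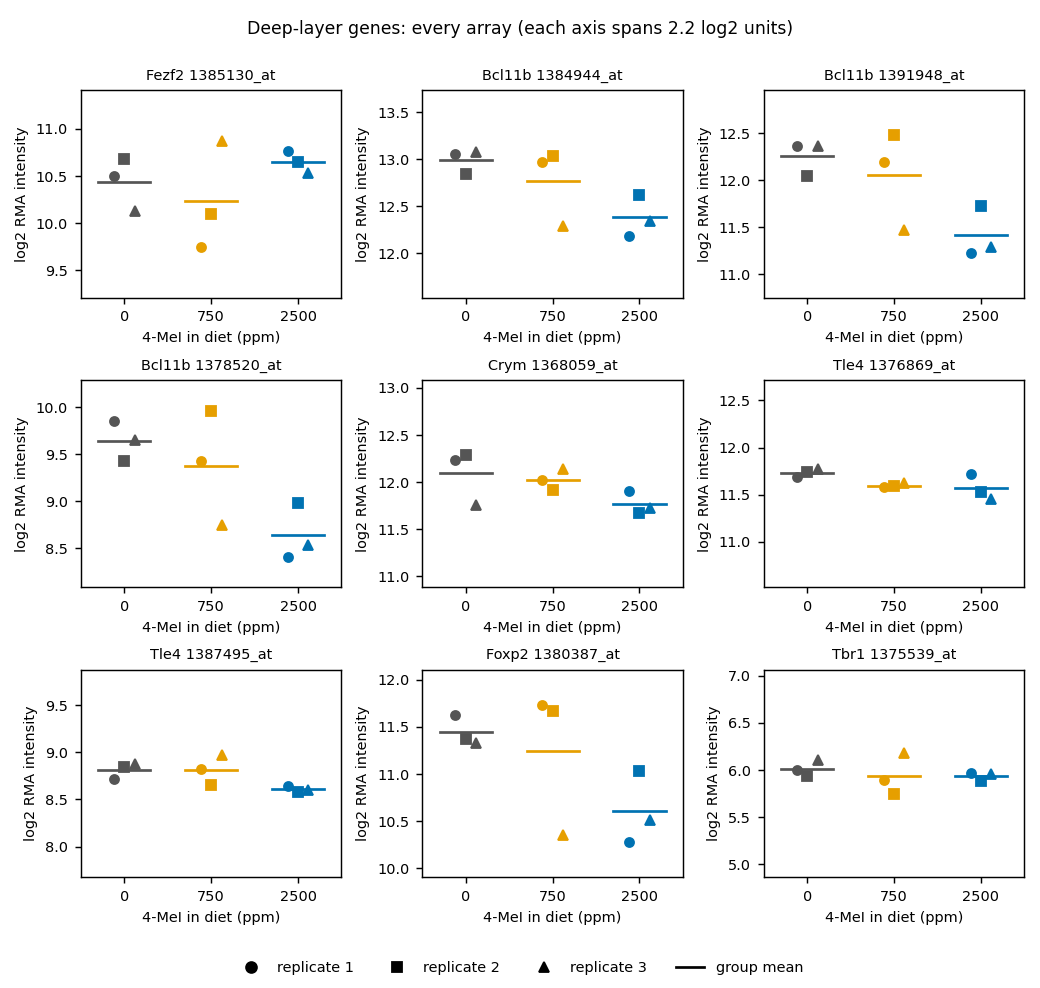
Log2 RMA intensity (y axes, all of equal span) of the 9 deep-layer probe sets at 0, 750 and 2500 ppm of 4-MeI in the diet (x axes). Points are single arrays, with a symbol for the replicate number, and lines are means of 3 arrays. On the 3 Bcl11b probe sets and Foxp2, the 2500 ppm arrays lie below the Control arrays and 750 ppm replicate 3 lies with them, whereas Fezf2 is highest in 750 ppm replicate 3.

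Among the upper-layer genes, Cux2 was above Control at 2500 ppm on both probe sets, in 2 of the 3 arrays clearly so. Cux2 encodes a cut homeodomain factor of layers 2 to 4 that promotes dendrite branching and spine formation in mouse upper-layer neurons. It lies on chromosome 12 from 40168402 to 40368303 (Entrez 288665). Probe set 1390622_at read 9.93, 9.84 and 9.85 in Control cortex, 9.83, 9.91 and 9.80 at 750 ppm, and 9.90, 10.42 and 10.45 at 2500 ppm. Probe set 1382202_at read 8.40, 8.28 and 8.66 in Control cortex, 8.43, 8.32 and 8.47 at 750 ppm, and 8.57, 8.89 and 8.84 at 2500 ppm. The array 2500 ppm replicate 1 overlapped with Control on both probe sets, while replicates 2 and 3 lay above all Control and 750 ppm arrays. Against Control the differences were 0.38 (SE 0.13) and 0.32 (SE 0.11), with limma adjusted p of 0.201 and 0.207. Against 750 ppm they were 0.41 (SE 0.13) and 0.37 (SE 0.11), with adjusted p of 0.264 and 0.251. Without 2500 ppm replicate 1, probe set 1390622_at differed from Control by 0.56 (adjusted p = 0.0438) and from 750 ppm by 0.59 (adjusted p = 0.0333). Leaving out the array that overlapped with Control separates the groups by that choice, and 1382202_at did not pass in this fit. Of all probe sets, 0.115% passed in it against Control and 0.0782% against 750 ppm. With the striatal covariate the differences from Control were 0.53 and 0.36 (adjusted p = 0.254 and 0.428).

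Cux1, the paralogue of Cux2 first known as the CCAAT displacement protein, showed a similar arrangement on 1 of its 2 probe sets, with smaller differences. Cux1 (Entrez 116639) lies on the same chromosome, from 25728393 to 26062497. Probe set 1372138_at read 10.51, 10.39 and 10.73 in Control cortex, 10.60, 10.53 and 10.40 at 750 ppm, and 10.40, 10.83 and 10.90 at 2500 ppm. Replicates 2 and 3 at 2500 ppm lay above all Control and 750 ppm arrays, and replicate 1 overlapped with both. The difference between 2500 ppm and Control was 0.17 (SE 0.14, adjusted p = 0.578), with a 95% interval from -0.14 to 0.47. It was 0.32 (adjusted p = 0.290) without 2500 ppm replicate 1 and 0.35 (adjusted p = 0.470) with the striatal covariate. Over the 9 arrays this probe set had r of 0.814 and 0.822 with those of Cux2. Probe set 1371024_at ranged from 9.75 to 10.44 at 2500 ppm, against 10.00 to 10.34 in Control cortex, with a difference of -0.0046 (adjusted p = 0.994) and an interval from -0.50 to 0.49. Its lowest value, 9.45, was that of 750 ppm replicate 3. On both Cux1 probe sets, as on both of Cux2, 2500 ppm replicate 1 was the lowest array of its group.

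Rorb, a nuclear receptor of layer 4 neurons that shapes the barrel columns of mouse somatosensory cortex, had the largest difference of the members at 750 ppm. It lies on chromosome 1 from 225790216 to 225970973 (Entrez 309288). Its brighter probe set, 1395023_at, read 9.50, 9.02 and 9.45 in Control cortex, 8.29, 8.98 and 8.61 at 750 ppm, and 8.66, 9.10 and 8.91 at 2500 ppm. All 750 ppm arrays lay below all Control arrays, the nearest pair being 0.044 apart, and 2500 ppm replicate 2 overlapped with Control. The difference from Control was -0.70 at 750 ppm (SE 0.19, limma adjusted p = 0.256) and -0.44 at 2500 ppm (SE 0.19, adjusted p = 0.305). The other probe set, 1371257_at, read between 6.91 and 7.11 at 750 ppm and between 6.998 and 7.33 at 2500 ppm, against 7.06 to 7.23 in Control cortex. Its differences from Control were -0.14 (adjusted p = 0.629) and 0.015 (adjusted p = 0.954), so the larger difference was seen on 1 of 2 probe sets.

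**Figure D3:**
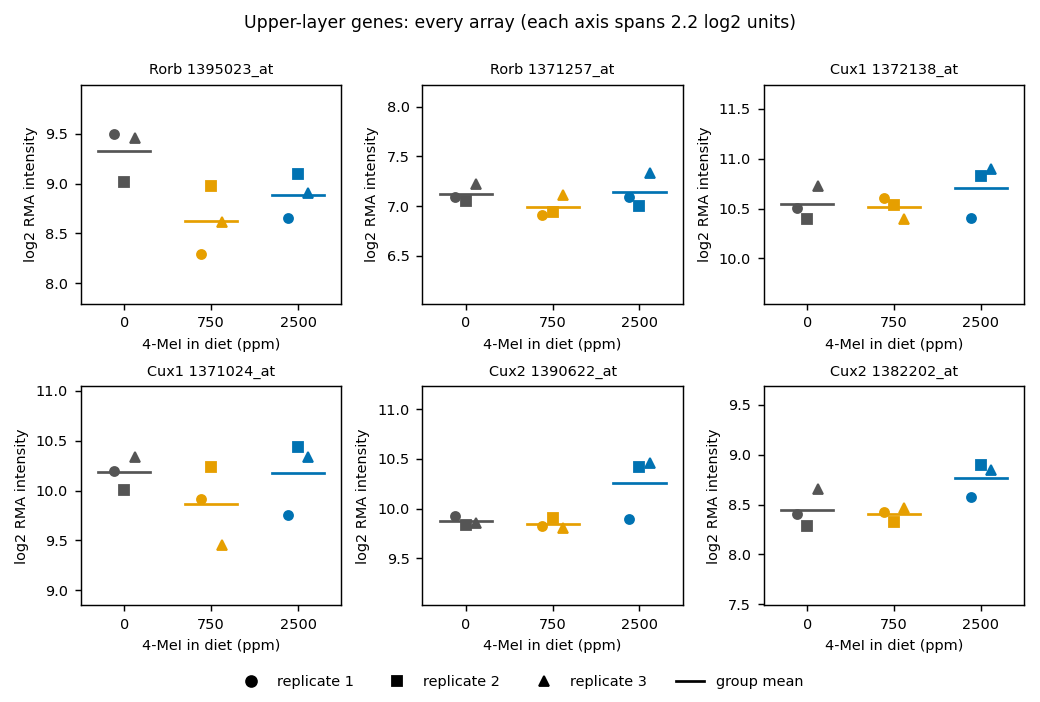
Log2 RMA intensity (y axes, all of equal span) of the 6 upper-layer probe sets at 0, 750 and 2500 ppm of 4-MeI in the diet (x axes). Points are single arrays, with a symbol for the replicate number, and lines are means of 3 arrays. Cux2 is highest in 2500 ppm replicates 2 and 3, and Rorb 1395023_at is lower in the 750 ppm arrays (8.29 to 8.98) than in the Control arrays (9.02 to 9.50).

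The start regions of Cux2 and Tle4 are shown because these are the upper-layer and the deep-layer gene, each with 2 probe sets, on which both probe sets had an unadjusted p under 0.05 against Control at 2500 ppm. Each run gives the 250 bases before an annotated start, read on the gene's strand from RefSeq (GRCr8), at chr12:40179032-40179281 on the plus strand for Cux2 and chr1:221222827-221223076 on the minus strand for Tle4. The Cux2 window lies inside the gene span, which begins at 40168402, so it precedes a start within the gene. The Tle4 window adjoins the end of its gene span, at 221222826. Capitals mark the letters CCAAT on either strand (ATTGG on the printed one) and the palindrome ATCGAT, both known from work on Cux proteins. No value of the arrays bears on binding there.
Cux2: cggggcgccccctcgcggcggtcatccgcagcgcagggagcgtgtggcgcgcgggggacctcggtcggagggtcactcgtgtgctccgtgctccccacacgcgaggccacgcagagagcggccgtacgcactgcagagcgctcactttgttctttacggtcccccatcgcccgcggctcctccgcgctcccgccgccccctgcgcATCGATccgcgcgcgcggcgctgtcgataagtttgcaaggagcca
Tle4: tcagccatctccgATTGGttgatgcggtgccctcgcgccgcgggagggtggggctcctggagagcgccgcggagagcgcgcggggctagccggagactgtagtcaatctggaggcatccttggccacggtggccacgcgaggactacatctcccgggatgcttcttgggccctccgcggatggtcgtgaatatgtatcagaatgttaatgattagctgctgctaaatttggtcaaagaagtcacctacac
CCAAT stood on either strand in 34.02% of the 33469 windows of this length and ATCGAT in 0.75%. Of the 6 members with a window (Rorb, Cux1, Cux2, Fezf2, Tle4 and Tbr1), Rorb and Tle4 held CCAAT and Cux2 held ATCGAT. Bcl11b, Crym and Foxp2 had no entry.

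Read over the members together, 2500 ppm cortex had 7 of 8 tested deep-layer probe sets below Control, with a median difference of -0.46, and 4 of 6 upper-layer probe sets above it, with a median of 0.091. Bcl11b supplies 3 of these 8 deep-layer probe sets and Tle4 2, so they weigh more than genes with 1, here and in the other comparisons. Over all 21729 probe sets the median difference was 0.0070, with 47.8% below and 52.2% above Control. The 2500 ppm and Control arrays did not overlap on 5 of the 14 member probe sets, all lower and all deep, beside 23.3% of all probe sets, 13.4% in that direction. These 5 are the 3 of Bcl11b, the 1 of Foxp2 and 1 of Tle4, so they stand for 3 genes. The count past the adjusted threshold was 0 of 14, beside 0.686% of all probe sets. It was 3, the 3 of Bcl11b, without 750 ppm replicate 3 (adjusted p = 0.0355 to 0.0389), with 2.06% of all probe sets passing in that fit. It was 6 with array weights, with 6.88% of all passing.

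At 750 ppm, 13 of the 14 were below Control, with a median of -0.17 beside 0.0023 over all probe sets, of which 49.1% were below. Only Rorb 1395023_at had an unadjusted p under 0.05 (10.1% of all probe sets, 4.37% lower), and groups did not overlap on 2 of 14 (14.2% of all, 6.58% lower), Rorb 1395023_at and Tle4 1376869_at. Past the adjusted threshold were 0 of 14, beside 0.0092% of all. Without 750 ppm replicate 3 the Bcl11b differences at this diet were 0.012, 0.084 and 0.052, against -0.22, -0.21 and -0.26 with it.

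Between 2500 ppm and 750 ppm, all 6 upper-layer probe sets were higher at 2500 ppm, with a median of 0.29, and 7 of 8 deep-layer probe sets were lower, with a median of -0.32. Of all probe sets 47.9% were higher and 52.1% lower, with a median of -0.0063. At the unadjusted level, 5 of 14 differed (12.6% of all). It was 2 of 14 without 750 ppm replicate 1 (8.16% of all in that fit) or without 2500 ppm replicate 3 (9.88%). Both of Cux2 were higher (5.25% of all), and 2 of Bcl11b and 1 of Tle4 were lower (7.33%). The groups did not overlap on 3 of 14 (17.4% of all): Cux2 1382202_at, Crym and Tle4 1387495_at. For Crym and Tle4 the nearest arrays almost touched (11.906 and 11.914, and 8.644 and 8.649). The adjusted count was 0, beside 0.322% of all, and 4 without 750 ppm replicate 3 (the 3 of Bcl11b and Foxp2, adjusted p between 0.0226 and 0.0402), in a fit where 3.35% of all passed. Comparisons that share the Control or the 2500 ppm arrays are not independent of each other.

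**Figure D4:**
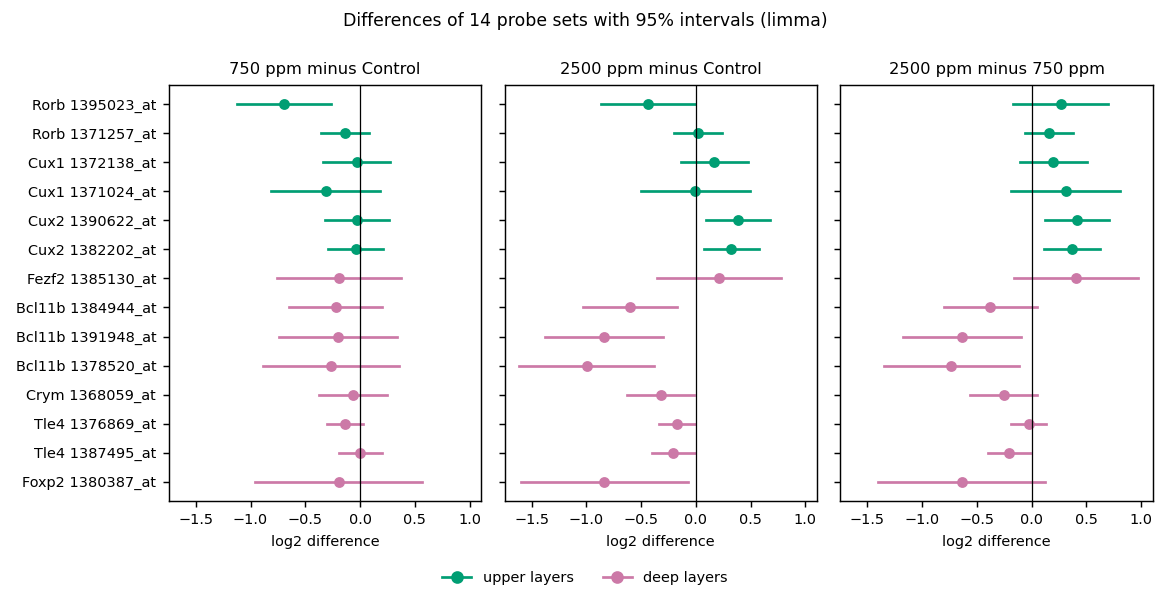
Log2 differences (x axes) of the 14 member probe sets above the filter (rows) for each dose against Control and for the higher against the lower dose, with 95% intervals from limma, not adjusted for the number of tests. Green marks upper-layer and pink deep-layer genes; at 2500 ppm against Control, Bcl11b lies between -0.60 and -0.998 and Cux2 at 0.38 and 0.32.

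Within single arrays, the mean of the 3 upper-layer genes minus that of the 6 deep-layer genes, each gene centred over the 9 arrays, was -0.16, -0.29 and 0.11 in Control cortex. It was -0.24, -0.12 and -0.19 at 750 ppm and 0.063, 0.33 and 0.50 at 2500 ppm. The 2500 ppm arrays lay highest as a group, with replicate 1 below Control replicate 3. Tbr1, which lay below the intensity filter, is 1 of the 6 deep-layer genes and stays in the deep mean that follows. Leaving Bcl11b and Foxp2 out of the deep mean, a choice made after seeing the data, gave -0.025, -0.27 and 0.23 in Control cortex, -0.038, 0.12 and -0.46 at 750 ppm, and -0.21, 0.32 and 0.34 at 2500 ppm. The groups then overlapped more widely, with 2500 ppm replicate 1 below 2 Control arrays and 2 of the 750 ppm arrays.

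**Figure D5:**
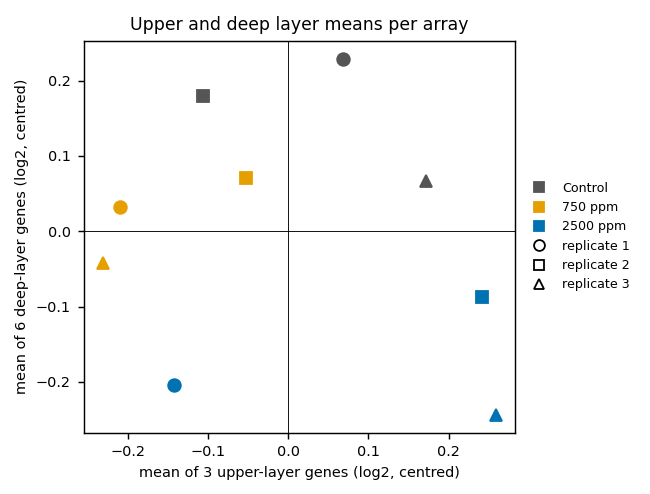
Mean of the 6 deep-layer genes (y axis) against the mean of the 3 upper-layer genes (x axis), both log2 and centred over the 9 arrays; each point is 1 array, coloured by diet with a symbol for the replicate number. The 3 points at 2500 ppm lie lowest on the deep-layer axis (-0.20, -0.088 and -0.24), and 2 of them lie highest on the upper-layer axis (0.24 and 0.26). The deep-layer mean includes Tbr1, which lay below the intensity filter.

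None of the further upper-layer and layer 5 genes tested passed at 2500 ppm. Of 10 further upper-layer genes measured, 6 were above and 4 below Control, with a median of 0.050. At an unadjusted p under 0.05 there was 1 of the 10, beside 16% of all probe sets. That gene was Nectin3, which encodes a cell adhesion protein, at 0.32 (SE 0.11, adjusted p = 0.205). Of 10 further layer 5 genes, 8 were above Control (52.2% of all probe sets), with a median of 0.14. Their mean per array, centred over the 9 arrays, was -0.063, -0.061 and -0.064 in Control cortex, 0.039, 0.031 and 0.041 at 750 ppm, and 0.0077, -0.0080 and 0.077 at 2500 ppm. All arrays of both doses lay above Control on this mean, although at 750 ppm 5 genes were above and 5 below Control. Rbp4, a retinol carrier gene, had the largest rise of the 10 at both doses, and the mean without it was not computed. Rbp4 read 7.81, 7.61 and 7.255 in Control cortex, 8.76, 8.36 and 8.22 at 750 ppm, and 7.85, 8.20 and 8.47 at 2500 ppm. At 2500 ppm Rbp4 was at 0.61 (adjusted p = 0.176), Parm1 at 0.30 (adjusted p = 0.164) and Igfbp4 at 0.23 (adjusted p = 0.276). Bcl6, a repressor of Notch targets during neurogenesis, was at -0.78 (adjusted p = 0.201).

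Of 5 further layer 6 genes, 1 passed: Syt6, a synaptotagmin gene, fell by 1.01 (SE 0.13, limma adjusted p = 0.0185). It read 8.05, 7.94 and 8.32 in Control cortex, 7.59, 7.81 and 7.35 at 750 ppm, and 7.05, 7.10 and 7.13 at 2500 ppm. The 3 groups did not overlap, and the level stepped down with the diet. Over all probe sets, 23.3% did not overlap between 2500 ppm and Control, and 14.2% between 750 ppm and Control. The call was lost without 2500 ppm replicate 1 (adjusted p = 0.0738) or replicate 2 (adjusted p = 0.0705), and with the striatal covariate (-0.83, adjusted p = 0.0962). Nfia was at -0.23 (adjusted p = 0.376), Zfpm2 at 0.35 (adjusted p = 0.493) and the neurotensin receptor gene Ntsr1, a marker of corticothalamic cells, at 0.14 (adjusted p = 0.539), so that the list had 2 genes above and 3 below Control. The mean of the 6 layer 6 genes on the array was 0.10, 0.082 and 0.14 in Control cortex, -0.16, -0.074 and -0.074 at 750 ppm, and 0.065, 0.019 and -0.098 at 2500 ppm, with all arrays of both doses below Control. Syt6, the gene that passed, is 1 of these 6 and had the largest fall at 2500 ppm, and the mean without it was not computed. Grik3, also among the 6, lay below the filter with a mean of 6.13. These means of lists were not tested.

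Of 7 measured regulators that act with the members on neuronal identity, 6 were above Control at 2500 ppm (52.2% of all probe sets), with a median of 0.13. At an unadjusted p under 0.05, 3 were higher (6.89% of all) and 0 lower, and 0 passed the adjusted threshold. Lhx2, a LIM homeodomain factor of cortical identity, was at 0.67 (SE 0.20, adjusted p = 0.155). It read 12.33, 12.44 and 12.22 at 2500 ppm, against 11.72, 11.81 and 11.44 in Control cortex, without overlap (23.3% of all probe sets). Nr2f2 was at 0.37 (adjusted p = 0.228), Bhlhe22 at 0.16 (adjusted p = 0.302) and Nr2f1, which patterns cortical areas, at 0.13 (adjusted p = 0.534).

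General markers of excitatory neurons were split evenly at 2500 ppm, with 5 of 10 above Control and a median of 0.022, and 6 general neuronal genes had a median of 0.018. Emx1, a homeobox gene of the dorsal telencephalon, rose by 0.76 at 2500 ppm against 750 ppm (SE 0.11, limma adjusted p = 0.0306). It read 9.14, 9.38 and 9.38 at 2500 ppm, against 8.37, 8.47 and 8.77 at 750 ppm and 8.70, 8.66 and 8.80 in Control cortex. Against Control it was at 0.58 (adjusted p = 0.0573). Of the 9 fits that left out 1 array, those without Control replicate 3 or 750 ppm replicate 3 kept the call against 750 ppm, and in the other 7 the adjusted p was between 0.0594 and 0.152. With the striatal covariate it was 0.102. Camk2a was at -0.52 (adjusted p = 0.253) and Slc17a7, the vesicular glutamate transporter of cortical neurons, at 0.26 (adjusted p = 0.399) against Control.

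Marker lists of other tissues differed between the same arrays. All 16 striatal genes tested were below Control at 2500 ppm, with a median of -1.099, beside 47.8% of all probe sets. Among them, Rgs9, Scn4b and Gpr6 were at -0.032, -0.028 and -0.018. Of 7 interneuron genes, 6 were below Control, with a median of -0.58. All 12 meningeal genes were above Control at both 2500 ppm (median 0.86) and 750 ppm (median 1.24), and 5 of 6 choroid plexus genes were at 2500 ppm (median 1.15). All 6 endothelial genes were above Control at both 2500 ppm (median 0.38) and 750 ppm (median 0.46). On their mean neither dose overlapped with Control. Few genes of these lists passed the adjusted threshold. At 2500 ppm against Control, 1 striatal, 2 meningeal and 1 choroid plexus gene passed, beside 0.686% of all probe sets. The interneuron and endothelial lists had 0. At 750 ppm against Control, each of these lists had 0. Thalamic (3 genes, median 0.27) and hippocampal (3 genes, median -0.013) lists had their defining genes Gbx2, Lhx9, Spink8 and Fibcd1 below the filter. The part of these tissues in the member differences was not tested. The striatal covariate cannot test it, because that mean itself differed between 2500 ppm and Control.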

How the data were processed

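The deposited values are log2 intensities, 1 per probe set and array; per the submitters' processing notes, the authors used affy with RMA, a method that subtracts background, equalises array distributions and summarises probes; no versions are stated. Quantile normalization hides a change in total RNA, and RMA gives no detection call. The number of arrays limits the precision. The 57 control probe sets and the 30% with the lowest mean (under 6.352) were left out, which left 21729. A model with 1 mean per diet was fitted to all 9 arrays with limma 3.58.1 in R 4.3.3 (prior degrees of freedom 3.25). Tests were two-sided with Benjamini-Hochberg adjustment within each comparison at 0.05. An exact permutation test of 3 against 3 cannot go below p = 0.1. The p-values rest on litter-to-litter spread, since each pup is from another litter. The code was tested on simulated data.

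Symbols came from the platform annotation (20826 probe sets with 1 symbol, 436 with several, 9780 with none) and positions from the GRCr8 gene table. Every member probe set is described. Of other lists, measured by the brightest probe set of each gene, up to 4 genes with the smallest p at 2500 ppm were named, and genes most correlated with each member that was above the filter. The members and lists were chosen with earlier results of these data known. Alternatives were other filters, scalings, variance models, weights, samples and covariates, including the mean of the striatal list.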

Additional observations from a re-analysis of the deposited data

How the results depend on the processing

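With 3 arrays per diet and adjustment over 21729 probe sets, no member passed in the fit reported, and 24 of 809 refitted member differences passed, 7 of them without 750 ppm replicate 3 and 7 with array weights. Direction was turned in 43. Against Control at 2500 ppm, 6 members passed with array weights, 2 with only the groups compared and 1 without both arrays that stand apart, and 0 to 3 without each array in turn; all probe sets called, 149 as reported, were 1495, 482 and 250 in those fits, 9 with the striatal covariate and 9 to 447 without each array. Of the 149, 61 were higher and 88 lower; repeating the quantile step gave 74 and 71. Against Control at 750 ppm, members stayed at 0 (also without each array); all called, 2 as reported, were 340, 1 and 71 in those 3 fits, 0 with the covariate (2491 at an unadjusted p under 0.05) and 0 to 49 without each array. For 2500 ppm against 750 ppm, 1 member passed with array weights, 5 without both arrays and 0 to 4 without each array; all called, 70 as reported, were 721, 14 and 1137, 27 with the covariate and 13 to 728 without each array.

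The replicate numbers are not said to pair pups, and deviations of same-numbered arrays correlated between -0.209 and 0.312, with 4 of 9 arrays closest to their own number. With the replicate block, 36 probe sets passed for 2500 ppm against 750 ppm, 122 at 2500 ppm and 2 at 750 ppm against Control, and 0 members in each.

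Turned directions were these, with the cause not tested. At 2500 ppm against Control, Rorb 1371257_at was -0.0037 after a second quantile normalization, -0.10 with the covariate and -0.081 to 0.087 without each array. Cux1 1371024_at was 0.018 after that normalization, 0.046 with array weights, 0.45 with the covariate, 0.074 without both arrays, 0.075 with the diet as a number and -0.14 to 0.21 without each array. Fezf2 was -0.29 and Foxp2 0.027 with the covariate. At 750 ppm against Control, the covariate gave 0.035 for Cux1 1372138_at, 0.025 for Cux2 1390622_at, -0.049 for Tle4 1387495_at and 0.12 for Foxp2. Leaving out both arrays gave 0.12 for Cux1 1372138_at, 0.034 for Cux2 1382202_at, 0.055, 0.14 and 0.055 for Bcl11b, -0.044 for Tle4 1387495_at and 0.20 for Foxp2. Array weights gave 0.037 for Cux1 1372138_at, and for Tle4 1387495_at median-centring gave -0.0085 and a second quantile normalization -0.025. Without each array, the values ran from -0.11 to 0.061 for Cux1 1372138_at, -0.12 to 0.065 for Cux2 1382202_at, -0.51 to 0.050 for Fezf2, -0.36 to 0.012, -0.42 to 0.084 and -0.56 to 0.052 for Bcl11b, -0.23 to 0.033 for Crym, -0.077 to 0.086 for Tle4 1387495_at and -0.44 to 0.25 for Foxp2. For 2500 ppm against 750 ppm, Tle4 1376869_at ran from -0.10 to 0.027. The diet as a number gives 1 slope and was set against the 2500 ppm comparison only.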
